A study of Mus musculus with 2 samples.

Results

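The mitochondrially encoded RNAs are the transcripts of the small circular genome inside mitochondria. They were taken as every row of the deposited count table whose gene name starts with mt-, which gave 16 of 22423 listed genes. These were 13 protein-coding genes, 2 ribosomal RNAs (mt-Rnr1 and mt-Rnr2) and 1 transfer RNA (mt-Tp). GENCODE M21, the mouse annotation on GRCm38, has 37 genes on this genome, and all 13 protein-coding and both ribosomal RNA genes had a row. The other 21 transfer RNA genes had no row and were not analysed here.

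RNA came from whole cerebellum at postnatal day 3 in C57BL/6 mice, from a Prdm16fl/fl control and from a Prdm16 conditional knockout, labelled Prdm16cKO and called cKO below. Each genotype had 1 column of read counts. The Cre driver and the cells it acts in, the deleted exons and the sex of the animals are not given in the sources used here, and the design text speaks of triplicates without saying whether a column pools them. With 1 column per genotype, no difference below has a replicate check and none was tested. A ratio is the log2 of the cKO over the control after TMM scaling, which sets the libraries level on the bulk of genes, with a 95% counting interval in parentheses that covers counting error alone.

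Mitochondrial DNA is transcribed from both strands as long precursors. These are cut apart mostly at the transfer RNAs that lie between the other genes, and most messengers then receive short poly(A) tails. The proteins are core subunits of respiratory complexes I, III and IV and of ATP synthase, which the nucleus completes with many more subunits. Neurons depend heavily on this chain for their energy supply. The TruSeq kit named in the labels enriches polyadenylated RNA, which disfavours transfer RNAs, and it does not mark the strand of origin. How fully each member was captured was not measured.

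Gene reads numbered 18600299 for the control library and 17501279 for the cKO. Prdm16 had 315 and 118 reads, a ratio of -1.30 (-1.62 to -0.99). Markers of the labelled tissue were present, with all 6 granule neuron progenitor genes and all 8 cerebellar neuron genes on the lists detected in both libraries. Their summed ratios were 0.22 (0.18 to 0.25) and 0.19 (0.17 to 0.20), with intervals above 0 for 6 of 6 and 6 of 8 genes. The 10 meningeal fibroblast markers had a summed ratio of 0.25 (0.24 to 0.27), with all 10 intervals above 0, and the 5 erythroid markers one of -0.33 (-0.45 to -0.20), with 1 interval below 0. The libraries also differed in other tissue. The 14 choroid plexus markers summed to 6089 CPM in the control against 190.0 in the cKO. CPM here and below are reads scaled to the library size after TMM scaling. Of these 14 markers, 12 were at least 2-fold lower, and none was at 0. Among them Ttr had 99032 and 257 reads. The 8 brainstem and midbrain neuron markers in the table summed to 18.1 CPM in the control library and 10.4 in the cKO. Of the 7 compared, 4 were at least 2-fold lower and 3 had ratios above 0 with intervals that held 0. Of all 18787 genes with at least 10 reads, 17% had intervals above 0 and 15.5% below. At least 2-fold lower, with an interval below 0, were 2.2%. Among the 523 genes with at least 10000 reads, 61.2% had intervals above 0. Xist had 14779 and 21 reads, and the Y-linked Eif2s3y had 0 and 1195 and Kdm5d 3 and 571. This is the pattern of a female control and a male cKO. Genotype cannot be told apart from sex or from the other differences between the libraries, and their part in the mitochondrial values was not tested. In bulk tissue, fewer cells of a type and less RNA per cell cannot be told apart either.

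A long stretch of this genome has a near-identical copy in the nucleus, which bears on 7 of the members. A blastn search of the members against all other GENCODE M21 transcripts found 7 annotated pseudogenes on chromosome 1 that matched a member with at most 1 mismatch and no gap. They lie together on the minus strand at chr1:24611535-24616197 (GRCm38), a span of 4663 bases, in the order of the mitochondrial genes. Of these, 5 were spaced base for base as on the mitochondrial genome, and the last 2 were shifted from that spacing by 1 base. Gm28661 was identical to mt-Co2 over 681 bases, Gm10925 to mt-Atp6 over 678, Gm28437 to mt-Co3 over 783, Gm10222 to mt-Nd4l over 294 and Gm28439 to the first 876 bases of mt-Nd4. Gm28438 differed from mt-Nd3 at 1 of 345 bases, by T3C counted from the first base of mt-Nd3. Gm29216 matched the last 483 bases of mt-Co1 with 1 mismatch. The search also found 11 matches of lower identity, 87.0% to 97.6%, of which 2 were among the listed genes. Of these, Gm13340 on chromosome 2 matched all 1545 bases of mt-Co1 at 97.6% and had 30 control and 28 cKO reads.

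The start of mt-Nd3, which encodes a complex I subunit, is shown with its copy because a single base separates them. Capitals mark the differing base. The sequences are those of GENCODE M21, at chrM:9459-9518 on the plus strand and chr1:24613060-24613119 on the minus strand.
mt-Nd3: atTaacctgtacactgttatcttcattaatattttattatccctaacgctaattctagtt
Gm28438: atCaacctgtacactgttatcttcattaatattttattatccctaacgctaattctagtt

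The edges of the copied stretch are shown next, since they mark where the chromosome 1 copies end. In mt-Co1 (chrM:6381-6440, plus strand) and Gm29216 (chr1:24616138-24616197, minus strand), capitals mark 6 differing bases, all near the 5′ end of the copy. Of these, A1066T, counted from the first base of mt-Co1, is the mismatch inside the aligned stretch, and the other bases precede it.
mt-Co1: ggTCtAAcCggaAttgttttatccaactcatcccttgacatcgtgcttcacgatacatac
Gm29216: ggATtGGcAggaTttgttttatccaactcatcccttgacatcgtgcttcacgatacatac

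In mt-Nd4 (chrM:11003-11082, plus strand), capitals mark bases inside the copy, which ends with Gm28439 (chr1:24611535-24611574, minus strand). The lower-case bases that follow lie beyond the annotated copy.
mt-Nd4: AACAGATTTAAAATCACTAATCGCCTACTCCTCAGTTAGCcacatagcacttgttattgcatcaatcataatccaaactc
Gm28439: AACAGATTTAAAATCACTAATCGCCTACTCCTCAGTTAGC

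Among the coding rows with at least 10 reads, level per length separated those with nearly all of their sequence shared from the rest. Each member was cut into all its windows of 50 bases, and windows found unchanged in a transcript outside the mitochondrial genome were counted. For mt-Co2, mt-Atp6, mt-Co3, mt-Nd3 and mt-Nd4l, 98.0% to 100% of windows were shared. These 5 rows held 3.76 to 172 CPM per kb for the control and 5.25 to 174 for the cKO. The other 7 coding rows with at least 10 reads shared 0% to 62.2% of windows and held 1759 to 10415 CPM per kb in the control and 1857 to 10996 in the cKO, so the ranges did not overlap. The same 5 members passed 95% with windows of 36 and of 100 bases. The sources used here do not say how reads that match more than 1 place were counted, and its part in these levels was not tested.

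The order of the 16 members by level per length was the same in both libraries. mt-Co1, the catalytic subunit of complex IV, was highest at 10415 CPM per kb in the control and 10996 in the cKO. mt-Nd1, a complex I subunit, followed at 8233 and 9675, and mt-Cytb, the complex III subunit, at 7104 and 7482. The ribosomal RNAs stood at rank 8 and 9, with mt-Rnr1 at 965 and 961 CPM per kb and mt-Rnr2 at 646 and 745. These are levels after poly(A) enrichment, so ranks across members and classes are not ranks of abundance in the tissue. At the low end, mt-Nd4l had 21 control and 27 cKO reads. mt-Atp8, a small ATP synthase subunit, had 1 read in each library, so no comparison of it is possible.

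**Figure D1:**
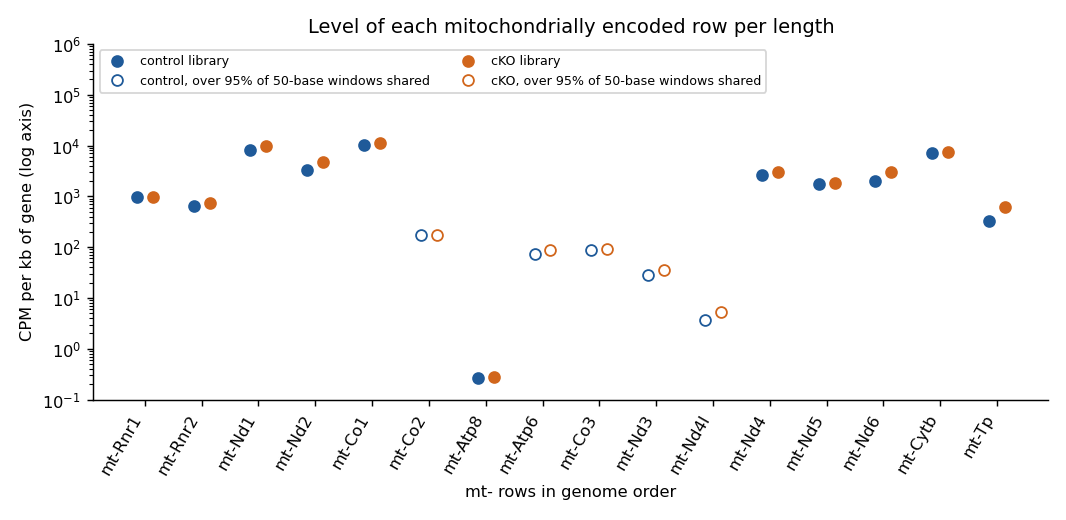
Level of each of the 16 mt- rows in CPM per kb (log axis), in genome order, for the control (blue) and cKO (orange) libraries, with 1 value per library. Open symbols mark the 5 rows with over 95% of 50-base windows shared with a nuclear transcript, which lie at 174 CPM per kb or lower. mt-Atp8, with 1 read in each library, lies lowest.

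mt-Atp8 shared 0% of its 50-base windows with annotated transcripts. No genome sequence was searched, so this does not show that mt-Atp8 has no copy outside annotated transcripts. The last 43 bases of mt-Atp8 are also the first 43 of mt-Atp6 and so have a match within Gm10925. That stretch is shorter than a 50-base window, and 4.73% of the 36-base windows of mt-Atp8 were shared. The position of its other bases on the copied stretch falls in the unannotated gap between Gm28661 and Gm10925. The spacing of these 2 copies equals that on the mitochondrial genome. The end of mt-Atp8 (chrM:7887-7969, plus strand) is shown for this overlap, with the bases shared with mt-Atp6 in capitals.
mt-Atp8: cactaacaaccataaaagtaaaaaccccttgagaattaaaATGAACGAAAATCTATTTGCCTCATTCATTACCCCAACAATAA

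The chromosome 1 copies themselves held many reads. Over the 7 copies there were 34619 control and 42553 cKO reads, a ratio of 0.42 (0.40 to 0.44). For 5 of the 7 pairs the copy had more reads than the member. The largest excess was at mt-Atp6, the proton channel subunit of ATP synthase, with 935 and 1053 reads against 9313 and 11385 on Gm10925. At mt-Co2, the copper-binding complex IV subunit that receives electrons from cytochrome c, the member had 2208 and 2065 reads and Gm28661 had 8207 and 10638.

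Member and copy did not give the same ratio. mt-Co2 stood at 0.02 (-0.07 to 0.11), Gm28661 at 0.49 (0.45 to 0.53) and their sum at 0.40 (0.37 to 0.44). mt-Co3, a further complex IV subunit, stood at 0.11 (-0.01 to 0.22) with 1280 and 1270 reads, and with the reads of Gm28437 added the ratio was 0.30 (0.25 to 0.34). The copy was above the member in 5 pairs and below it for mt-Nd3 and mt-Nd4l. With their copies added, mt-Co1 stood at 0.09 and mt-Nd4 at 0.18, and the copies held 2.10% and 3.77% of the combined control reads. Because identical sequences cannot be assigned to either source, the values of mt-Co2, mt-Atp6, mt-Co3, mt-Nd3 and mt-Nd4l are uncertain as levels and as ratios. mt-Nd4 and mt-Co1 shared 62.2% and 51.1% of their windows, so part of this uncertainty holds for them and for shares of the coding reads.

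**Figure D2:**
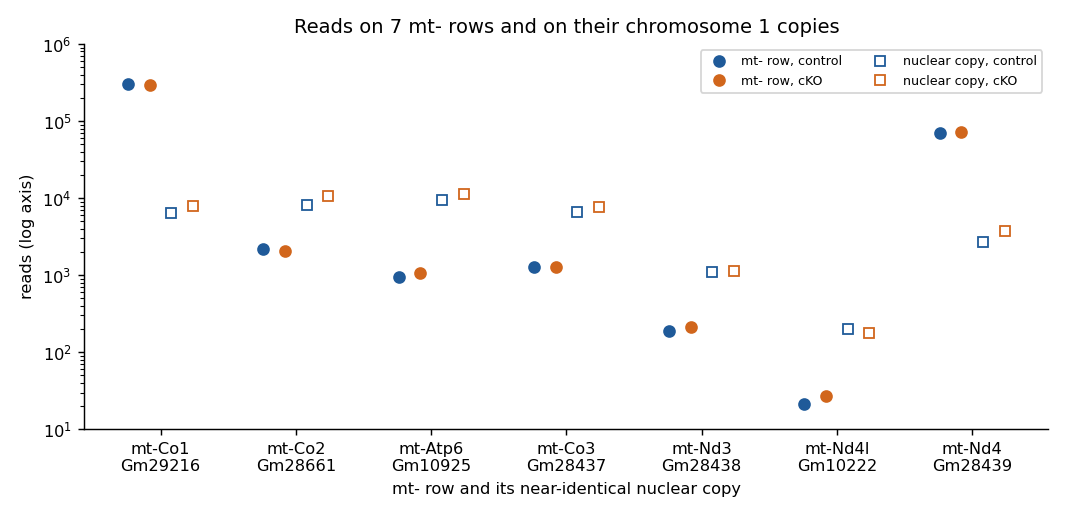
Reads (log axis) on 7 mt- rows (circles) and on the near-identical chromosome 1 copy of each (open squares) in the control (blue) and cKO (orange) libraries. For mt-Co1 and mt-Nd4 the member lies above the copy, and for the other 5 pairs the copy lies above the member.

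As a whole, the mitochondrially encoded RNAs took a slightly larger part of the cKO library. They had 857921 reads in the control, 4.61% of all gene reads (4.60 to 4.62, exact binomial), and 885126 in the cKO, 5.06% (5.05 to 5.07). The scaled ratio of the sums was 0.16 (0.16 to 0.17), 1.12-fold. With the 7 copies counted in, the shares were 4.80% and 5.30%. Of the 15 members with at least 10 reads, 14 had ratios above 0 and 1 below, with a median of 0.21. The median over all 18787 genes with at least 10 reads was 0.01, and 51.3% of them were above 0.

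No member passed the size rule of at least 2-fold with an interval that excludes 1. Of all 18787 genes, 3.42% passed it, 1.21% higher and 2.2% lower in the cKO. At 1.5-fold 1 member passed, mt-Tp, higher in the cKO, beside 6.18% of all genes, 2.26% of them in that direction. Intervals lay above 0 for 11 members and below 0 for none, although with library totals in place of TMM that of mt-Rnr1 lay just below 0 (-0.068 to -0.0053). Of all genes, 17% had intervals above 0 and 15.5% below. That background is of shallower genes, with wider intervals. Among 523 genes with at least 10000 reads, 70.4% had ratios above 0, 61.2% had intervals above 0 and 21.4% below, and the median ratio was 0.08. Of these genes 0.382% passed the size rule, and 0.574% passed at 1.5-fold. The 9 members at that depth had 8 intervals above 0, none below and a median of 0.16. These rows are not independent, since most are cut from a shared precursor.

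**Figure D3:**
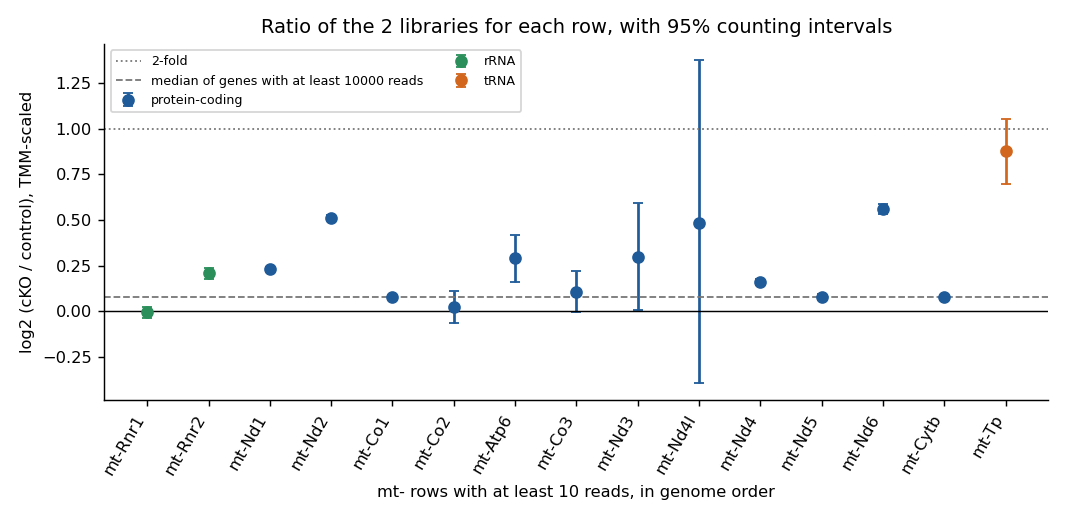
Log2 ratio of cKO over control for the 15 mt- rows with at least 10 reads, in genome order, with 95% counting intervals, coloured by class. mt-Tp (0.88), mt-Nd6 (0.56) and mt-Nd2 (0.51) stand highest among the rows with narrow intervals, mt-Rnr1 lies at -0.01, and the dashed line marks the median of 0.08 for well-covered genes.

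By class, the protein-coding rows summed to 820979 control and 848111 cKO reads, a ratio of 0.16 (0.16 to 0.17). The ribosomal RNAs summed to 36527 and 36313, a ratio of 0.11 (0.09 to 0.13). These 2 RNAs, the structural RNAs of the mitochondrial ribosome, differed from each other. mt-Rnr1 had 17319 and 15889 reads, a ratio of -0.01 (-0.04 to 0.02), and mt-Rnr2 had 19208 and 20424, a ratio of 0.21 (0.18 to 0.24). mt-Rnr1 had the lowest ratio of the 15 members compared. It lies upstream of mt-Rnr2 on the same strand. Coding rows made up 95.7% of mitochondrial reads in the control, against 95.8% in the cKO. These shares hold after poly(A) enrichment and are not shares of the RNA in the tissue.

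The transfer RNA class had 1 row. mt-Tp, the proline transfer RNA, had 415 control and 702 cKO reads. Its level was 22.1 CPM in the control (20.0 to 24.3, exact Poisson) and 40.5 in the cKO library (37.6 to 43.6). Its ratio of 0.88 (0.70 to 1.06) was the largest of the members, 1.84-fold, and 2 of 7724 genes with at least 1000 reads had a higher one. It lies on the minus strand at chrM:15356-15422, next to mt-Tt and close to the end of mt-Cytb. Reads of the opposite strand through this position cannot be told apart from it. Its sequence is shown because it is the only transfer RNA counted, with the anticodon in capitals.
mt-Tp: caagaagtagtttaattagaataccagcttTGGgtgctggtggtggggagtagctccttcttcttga

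Complex I, which takes electrons from NADH, held the coding rows with the highest ratios. Its 7 members summed to 361340 control and 401256 cKO reads, a ratio of 0.27 (0.26 to 0.28). Intervals lay above 0 for 6 of the 7, beside 17% of all genes and 61.2% of the 523 with at least 10000 reads. Those 6 include mt-Nd3, whose value is uncertain because its sequence is shared. mt-Nd2 had 63830 and 83953 reads, a ratio of 0.51 (0.50 to 0.53) and 1.43-fold. It was exceeded by 4 of the 523 well-covered genes, and 8.19% of its windows were shared. mt-Nd6 had 19754 and 26814 reads, a ratio of 0.56 (0.53 to 0.59) and 1.47-fold. It was exceeded by 1 of the 523 genes, and 0% of its windows were shared.

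Of the other complex I members, those with over 10000 reads were closer to the well-covered median of 0.08. mt-Nd1 had 148091 and 160354 reads (0.23, 0.22 to 0.24), and 63 of 523 genes exceeded it. mt-Nd4 had 69150 and 71241 reads (0.16, 0.15 to 0.18). mt-Nd5, the largest complex I subunit encoded here, had 60307 and 58655 reads, with a ratio of 0.08 (0.06 to 0.09), equal to that median at this rounding. mt-Nd3 (187 and 212 reads) stood at 0.30 (0.01 to 0.59) and mt-Nd4l at 0.48 (-0.40 to 1.38). With their copies added these were lower, at 0.15 (0.04 to 0.27) for mt-Nd3 and 0.02 (-0.26 to 0.30) for mt-Nd4l. The neighbours mt-Nd5 and mt-Nd6, which lie on opposite strands and overlap by 14 bases, had intervals that did not overlap.

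The 2 members annotated on the minus strand, mt-Nd6 and mt-Tp, together had 20169 control and 27516 cKO reads, a ratio of 0.57 (0.54 to 0.59). The 14 plus-strand members together stood at 0.15 (0.15 to 0.16), although mt-Nd2 among them had 0.51. This grouping was chosen after the values were seen. Since the kit does not mark strand, reads from the plus-strand precursor over these positions cannot be told apart from minus-strand transcripts.

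The complex III member and the most abundant complex IV member lay at the well-covered median. mt-Cytb had 152763 and 148248 reads, for a ratio of 0.07 (0.06 to 0.09). mt-Co1 had 302452 and 294218 reads, for a ratio of 0.08 (0.07 to 0.09). The 3 complex IV members together stood at 0.08 (0.07 to 0.09), a sum made up almost wholly of mt-Co1. With their copies added, mt-Co2 and mt-Co3 stood at 0.40 and 0.30, above that median. For ATP synthase, mt-Atp6 stood at 0.29 (0.16 to 0.42) with 935 and 1053 reads, and at 0.40 (0.36 to 0.44) with its copy added.

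The make-up of the coding reads, which no scaling between libraries can move, shifted by 3.76 percentage points in all. With the reads of the nuclear copies added to their members, the shift was 3.88 points. Shares were higher in the cKO for 6 of the 13 coding rows and lower for 7. mt-Nd2 went from 7.77% of coding reads in the control to 9.90% in the cKO, mt-Nd1 from 18.0% to 18.9% and mt-Nd6 from 2.41% to 3.16%. mt-Co1 went from 36.8% to 34.7%, mt-Cytb from 18.6% to 17.5% and mt-Nd5 from 7.35% to 6.92%. mt-Nd4 stayed at 8.42% and 8.40%, a difference within its binomial intervals of 8.36 to 8.48 and 8.34 to 8.46.

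**Figure D4:**
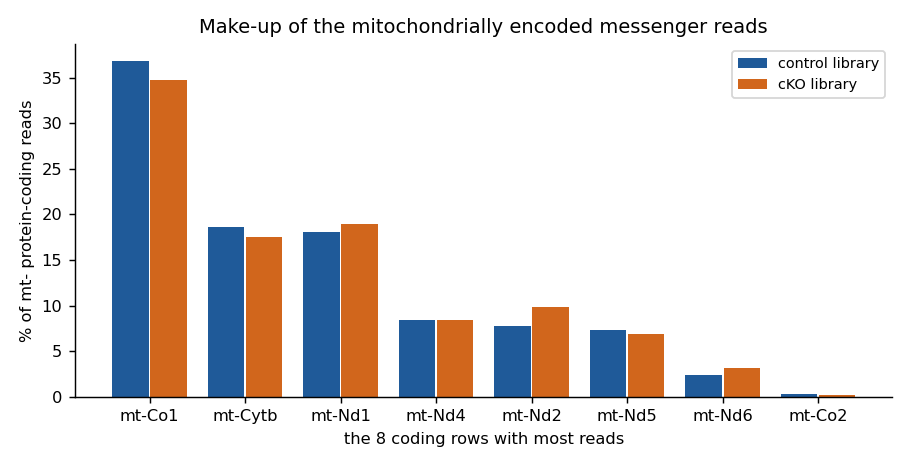
Percent of the mt- protein-coding reads of each library taken by the 8 coding rows with most reads, control in blue and cKO in orange, with 1 value per library. mt-Nd2, mt-Nd1 and mt-Nd6 take more of the cKO reads, and mt-Co1, mt-Cytb and mt-Nd5 take less.

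The nuclear genes of mitochondria were described from 11 lists, of which 230 genes had at least 10 reads. Their median ratio was 0.06, with 157 above 0 and 73 below, against 0.01 over all genes. Intervals lay above 0 for 71 and below 0 for 23, beside 17% and 15.5% of all genes. Depth was not matched in these comparisons. Among the 523 genes with at least 10000 reads, the median was 0.08 and 70.4% of ratios lay above 0. Of their intervals, 61.2% lay above 0 and 21.4% below. The size rule called 1 of the 230, beside 3.42% of all genes. The nuclear subunits of the respiratory chain and ATP synthase, 75 genes, had a median of 0.04.

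Nuclear complex I subunits had a median of 0.07, with 27 of 36 above 0, and the accessory subunits Ndufs6 (0.48, 0.30 to 0.65) and Ndufa13 (0.34) were highest. Complex II, which has no mitochondrially encoded subunit, had a median of 0.04 over 4 genes, from the flavoprotein gene Sdha (-0.12) to the iron-sulfur subunit gene Sdhb (0.10). Complex III subunits had a median of 0.03, from the Rieske protein gene Uqcrfs1 (-0.18) to the core protein gene Uqcrc1 (0.27). Complex IV subunits had a median of 0.01, from Cox5a (-0.29) to Cox5b (0.34). ATP synthase subunits had a median of 0.01, from Atp5k (-0.81, -1.10 to -0.53) and Atp5e (-0.60) to Atp5h (0.21).

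The 1 gene called was Ndufs5, a complex I subunit gene, with 490 control and 58 cKO reads, a ratio of -2.96 (-3.38 to -2.57). The listed gene BC002163 was 99.4% identical to it over 319 bases and had 408 and 745 reads, a ratio of 0.99 (0.81 to 1.16). The reads of both together gave -0.04 (-0.18 to 0.10). The difference in Ndufs5 is therefore uncertain.

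**Figure D5:**
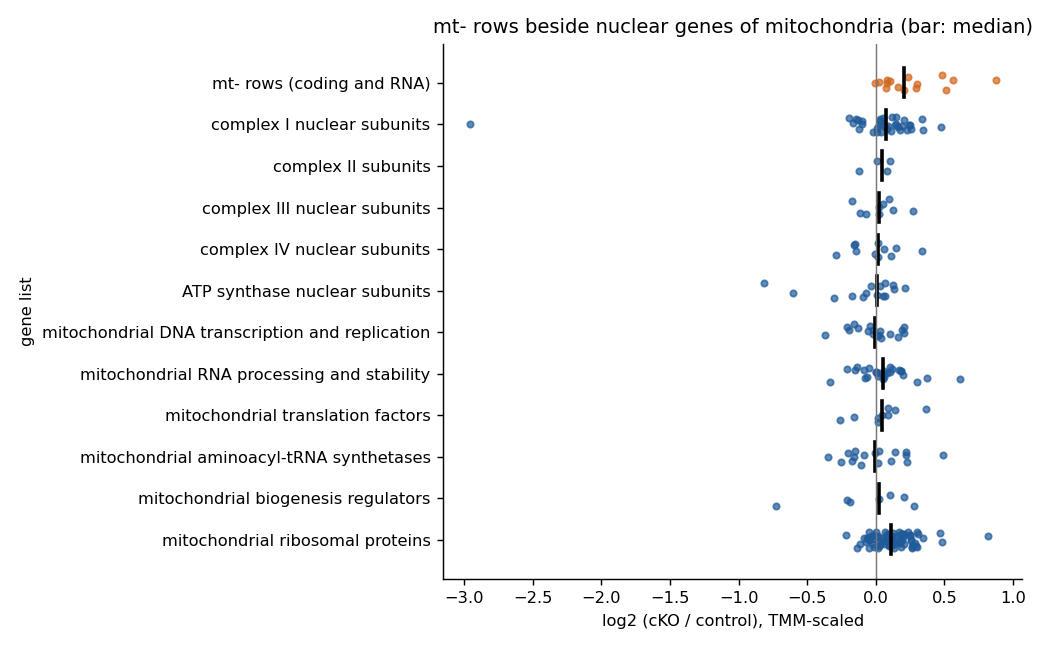
Log2 ratio of cKO over control for the 15 mt- rows with at least 10 reads (orange) and for the nuclear genes of 11 mitochondrial lists (blue), 1 point per gene, with the median as a bar. The median of the mt- rows is 0.21 and that of the ribosomal protein list 0.11, and the point at -2.96 is Ndufs5.

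Genes of mitochondrial DNA transcription and replication had a median of -0.01 over 18 genes, with the helicase gene Twnk (0.21) highest and the polymerase subunit gene Polg2 (-0.37, -0.77 to 0.03) lowest. Polrmt, the mitochondrial RNA polymerase, stood at 0.16 (0.02 to 0.30) with 800 and 824 reads, and Tfam, the DNA-packaging transcription factor, at -0.02 (-0.16 to 0.12) with 865 and 785. This pair was named for its function, outside the rule for named genes and after its values were seen. RNA processing and stability genes had a median of 0.05 over 27 genes. Fastkd5, which acts on messenger junctions that lack a transfer RNA, had 64 and 90 reads (0.61, 0.13 to 1.10), and Lrpprc, which stabilises the messengers, had 1240 and 988 (-0.21, -0.33 to -0.09).

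Mitochondrial ribosomal protein genes had the highest median of the 11 lists, 0.11 over 77 genes. Of these, 61 were above 0, with 28 intervals above 0 and 1 below, and none was called. Over all genes, 51.3% of ratios lay above 0, 17% of intervals lay above 0 and 15.5% below, and 3.42% were called. Depth was again not matched, and 70.4% of the 523 genes with at least 10000 reads had ratios above 0. A separate list of 12 housekeeping genes also had a median of 0.11, with 7 ratios above 0 and 5 below. Mrps18c (66 and 107 reads) stood at 0.82 (0.36 to 1.28) and Mrpl12 at 0.48, with Mrps14 (-0.22) and Mrps34 (-0.14) at the low end. Translation factors had a median of 0.05, with Tsfm (0.37) highest and Mtif3 (-0.26) lowest. Aminoacyl-tRNA synthetases, which charge the transfer RNAs, had a median of -0.01, with Mars2 (0.49) and Lars2 (0.23) highest and Nars2 (-0.34) and Hars2 (-0.25) lowest. Regulators of mitochondrial biogenesis had a median of 0.02, from Ppargc1b (36 and 20 reads, -0.73, -1.60 to 0.10) and Gabpa (-0.21) to Nrf1 (0.20) and Gabpb1 (0.28).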

How the data were processed

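The authors deposited 1 table with a control and a cKO column of raw read counts, per the file headers. The authors also deposited CPM values, made by scaling each count to a library total. The deposited ratio (fold change) is the quotient of the authors' normalized values, and the deposited log2 column is its logarithm. The deposited p-value and adjusted p columns came from a tool that no source used here names. None of these 4 derived kinds was used. TopHat2 2.0.12, HTSeq 0.6.0, Bowtie2 2.2.3 and mm9 appear in the submitters' processing notes, with no roles. Strand use and the treatment of reads with several matches are not given there. Positions, lengths and sequences are those of GENCODE M21 on GRCm38, matched by Ensembl gene ID for all 16 members. Whether the table was made on mm9 is uncertain, since it also lists the chromosome 1 pseudogenes under their GRCm38 Ensembl IDs, so no position is credited to the authors. Unused sample columns numbered 0.

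TMM scaling used edgeR 4.0.16 (R 4.3.3). Intervals at 95% are Clopper-Pearson for ratios (conditional on the sum) and shares, and Poisson for CPM. They treat reads as independent molecules, which reads lacking molecular identifiers are not, so they cover counting error only. Of 22423 genes, 3636 had fewer than 10 reads over both libraries and were not compared. Copies were sought with blastn 2.17.0 (at least 200 aligned bases at 85% identity). Other steps ran in Python 3.11.15 with scipy 1.17.1, pandas 2.3.3, matplotlib 3.10.9 and numpy 2.4.6, and were checked on simulated data. With 1 library per genotype no test was possible. Alternatives were other scalings (library totals, DESeq2 1.42.0 size factors, upper quartile, TMM without the mt- rows), read minimums, interval levels and fold sizes.

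The members and gene lists were chosen with earlier results of these data known. Any member could be named, as could the extremes of each nuclear list by ratio, 2 at either end, among genes of 50 reads or more.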

Additional observations from a re-analysis of the deposited data

How the results depend on the processing

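No paired analysis was possible because each genotype has 1 library, and for the same reason no library could be left out. The protein-coding sum stood at 0.13 with library totals, 0.15 with DESeq2 size factors and 0.18 with the nuclear copies added, beside 0.16 with TMM. The ribosomal RNA sum stood at 0.079 with library totals, beside 0.11, and the median of the nuclear lists at 0.030 with library totals and 0.040 with DESeq2 size factors, beside 0.06. The share of mitochondrial reads was 0.445 percentage points higher in the cKO, 0.414 when the choroid plexus and sex-linked lists left the total, and 0.502 with the copies added. At 1.5-fold, 1 member passed the size rule, mt-Tp, beside 6.18% of all genes. These shifts between settings are arithmetic results of the library sizes, rows and thresholds used. The cause of the differences between the libraries was not tested.

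Each of 5 other scalings moved every member by the same amount, which was 0.03 at most. The values are therefore not separate checks, and a ratio further than that from 0 could not change direction. The direction was kept in 79 of 80 values, and the exception was mt-Co2, at 0.02 with TMM and -0.01 with library totals. The interval of mt-Nd3 held 0 with library totals and with DESeq2 size factors, and that of mt-Rnr1 lay below 0 with library totals, at -0.036 (-0.068 to -0.0053). These scalings moved the medians of the nuclear lists by the same amounts. Over the scalings and the other read minimums together, the medians kept their sign in 71 of 77 values. The 6 changes of sign all came with library totals or DESeq2 size factors, and none with a read minimum. Adding copies, leaving the choroid plexus and sex-linked lists out of the scaling, and windows of 36 and 100 bases were chosen after seeing the data. Depth limits mt-Atp8, with 1 read per library, and mt-Nd4l, whose interval spans -0.40 to 1.38.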
